A study of Mus musculus with 3 samples.

Results

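Osteoblasts with high osteocalcin were chosen by measured UMIs in 3 single-cell libraries of mouse long bone (unique molecular identifiers, which count RNA molecules rather than reads). A barcode was kept as a cell when it held at least 1000 genes (Pdgfra-GFP library) or 1500 (metaphyseal libraries), with mitochondrial genes giving no more than 15% and *Rps* and *Rpl* genes no more than 30% of its UMIs. A kept cell was called an osteoblast when *Bglap* and *Bglap2*, the osteocalcin genes, made up at least 0.5% of its UMIs. It also had to hold fewer than 5 UMIs of *Dmp1* and *Mepe*, fewer than 5 of the cycle genes *Top2a*, *Mki67*, *Birc5*, *Cdk1* and *Ccnb2*, at most 1 of the endothelial genes *Pecam1* and *Cdh5* and at most 1 of the haematopoietic genes *Laptm5* and *Tyrobp*. The rule found 1414 osteoblasts among 15628 cells kept. Of these, 45 came from metaphyseal library 1, 56 from metaphyseal library 2 and 1313 from the Pdgfra-GFP library.

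The study asked where septoclasts, cells that resorb cartilage below the growth plate, come from, and profiled stromal cells by droplet sequencing. Both metaphyseal libraries were made from the metaphysis of femur and tibia of untreated 3-week-old C57BL/6 mice (males of the J substrain, as the study's methods give its wild-type animals) after depletion of lineage-positive, CD45+ and CD117+ haematopoietic cells. The Pdgfra-GFP library was made from untreated 3-week-old C57BL/6 males that carried *Pdgfra-H2B-GFP*, a nuclear reporter knocked into *Pdgfra*, on a single allele, and its cells were sorted for GFP from femur and tibia, from a piece described as metaphysis in the methods and as metaphysis with epiphysis elsewhere in the study. The sort, the region and the genotype therefore differ together between the groups and cannot be told apart. Nothing states that the metaphyseal libraries came from different animals. Each p-value therefore speaks for these libraries and not for a spread between animals. It also rests on a variance estimate that the test shares across genes. The libraries held 25243314, 22082735 and 91747759 UMIs over all barcodes, in the order metaphyseal 1, metaphyseal 2 and Pdgfra-GFP, which is the order of every set of 3 values here.

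Osteoblasts lay down bone: they secrete type I collagen, which is folded and modified on its way through the secretory pathway, cross-linked outside the cell and then filled with mineral. Osteocalcin is a small secreted protein whose glutamate residues are carboxylated by a vitamin K-dependent enzyme so that it binds calcium in the mineral. It marks late osteoblasts, some of which are buried in the matrix and become osteocytes that express *Dmp1* and *Mepe*.

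In the mouse, osteocalcin is encoded by a cluster of near-identical genes on the minus strand of chromosome 3 (GRCm38, the build of the files). The protein-coding gene *Bglap* (ENSMUSG00000074483) lies at chr3:88383501-88384464, *Bglap2* (ENSMUSG00000074486) at chr3:88377736-88378699 and *Bglap3* (ENSMUSG00000074489) at chr3:88368616-88372743. The library method reads the 3′ end of a transcript, and over the last 200 bases the transcripts of *Bglap* and *Bglap2* differed at 1 base (99.5% identity), those of *Bglap* and *Bglap3* at 6 (97%) and those of *Bglap2* and *Bglap3* at 5 (97.5%). The split of UMIs between the copies is therefore uncertain, and the sum of *Bglap* and *Bglap2* was used. The promoters of *Bglap* and *Bglap3* are printed because osteocalcin chose these cells, and the UMIs assigned to these copies differed widely, although that split is uncertain. Both are RefSeq windows on GRCm38.p6, from 250 bases before to 50 after an annotated start, 5′ to 3′ on the minus strand, at chr3:88384417-88384716 for *Bglap* and chr3:88372692-88372991 for *Bglap3* (the most upstream of its 3 windows). Capitals mark ACCACA, the core that RUNX factors bind, and TATAAA, one spelling of the TATA box.
Bglap: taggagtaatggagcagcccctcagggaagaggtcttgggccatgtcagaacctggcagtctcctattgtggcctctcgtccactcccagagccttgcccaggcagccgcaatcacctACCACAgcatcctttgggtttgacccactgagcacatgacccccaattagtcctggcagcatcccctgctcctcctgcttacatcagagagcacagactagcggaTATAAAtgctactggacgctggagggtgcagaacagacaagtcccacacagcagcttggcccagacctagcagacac
Bglap3: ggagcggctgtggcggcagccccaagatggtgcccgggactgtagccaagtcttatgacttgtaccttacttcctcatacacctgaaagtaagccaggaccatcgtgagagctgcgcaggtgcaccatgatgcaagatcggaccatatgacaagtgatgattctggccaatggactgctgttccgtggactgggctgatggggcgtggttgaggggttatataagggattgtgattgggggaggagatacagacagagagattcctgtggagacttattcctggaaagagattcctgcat
The *Bglap* window held ACCACA 132 bases and TATAAA 27 bases before its start. Neither was found on either strand in any of the 3 *Bglap3* windows. Other spellings of the TATA box were not searched, so this is no statement that *Bglap3* lacks one. ACCACA, or TGTGGT for the other strand, was present in 5506 of 32851 RefSeq promoter windows of this length (16.8%), and TATAAA or TTTATA in 4473 (13.6%). A match describes the letters and is no evidence of binding.

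The share of osteoblasts among cells kept was 1.89% (95% exact binomial interval 1.38–2.52%) in metaphyseal library 1, 2.79% (2.12–3.61%) in metaphyseal library 2 and 11.7% (11.1–12.3%) in the Pdgfra-GFP library. The intervals cover counting error only and, with a single GFP library, no test between the groups was possible. The limit on genes per kept cell also differed, at 1500 in the metaphyseal libraries and 1000 in the Pdgfra-GFP library. Among cells with at least 2000 genes the shares were 2.13%, 3.09% and 15.7%. At least 0.5% osteocalcin was reached by 64, 75 and 1496 cells, of which the limit on *Dmp1* and *Mepe* removed 15, 15 and 151, the limit on cycle genes 1, 2 and 14, that on endothelial genes 3, 2 and 2, and that on haematopoietic genes 1, 0 and 25. Some cells failed more than 1 limit. The osteoblasts lowest in osteocalcin were at 0.514% and 0.507% in the metaphyseal libraries and on the threshold itself in the Pdgfra-GFP library, and the highest cells left below the threshold at 0.467%, 0.435% and 0.499%. In the Pdgfra-GFP library 54 osteoblasts lay between 0.5% and 0.6% and 115 cells between 0.4% and 0.5%, so there the threshold cut through a range rather than a gap. A doublet caller marked 0, 2 and 45 of the osteoblasts. The Pdgfra-GFP library shared 9 and 10 barcodes of kept cells with the metaphyseal libraries, none of them an osteoblast in both.

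Osteocalcin made up a median of 3.25% of the UMIs of an osteoblast in metaphyseal library 1, 2.96% in metaphyseal library 2 and 10.6% in the Pdgfra-GFP library. The highest cells reached 19.2%, 17.2% and 35.0%. These values chose the cells and are a description. In the Pdgfra-GFP library 679 of 1313 osteoblasts held at least 10% osteocalcin, against 7 of 45 and 5 of 56 in the metaphyseal libraries. Barcodes with fewer than 100 UMIs, which hold mostly RNA set free from broken cells, had 0.480%, 0.763% and 3.37% osteocalcin, so free osteocalcin RNA was also most abundant in the Pdgfra-GFP library. The summed endothelial cells of the same libraries, which should lack the gene, held 0.0104%, 0.123% and 0.0650%, with medians per cell of 0, 0 and 0.0584%. Osteoblasts held a median of 20882, 21840 and 10930 UMIs and 3676, 3696 and 2411 genes, so the metaphyseal osteoblasts were sampled more deeply per cell.

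**Figure D1:**
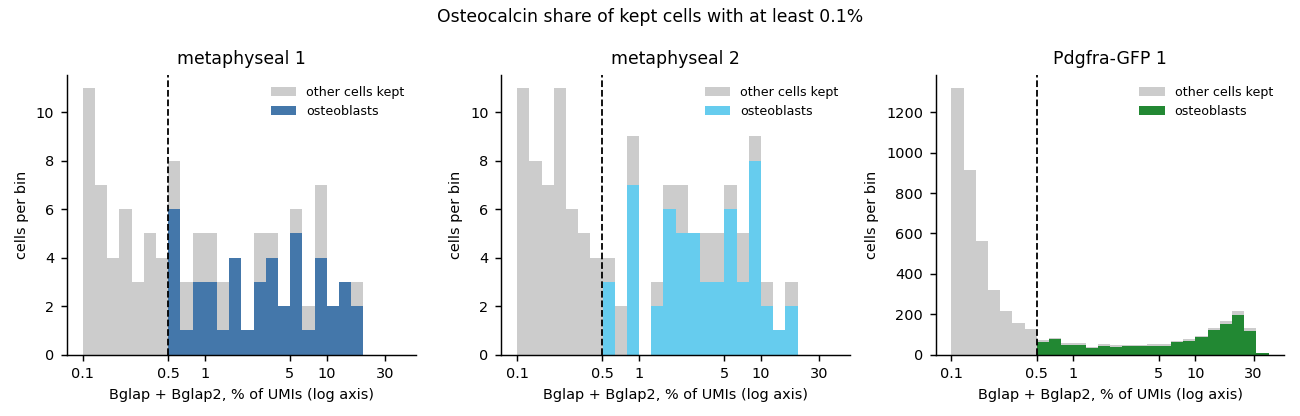
Number of kept cells (y axis) by the share of Bglap and Bglap2 in their UMIs (x axis, percent, log scale) for cells with at least 0.1%, 1 panel per library, with osteoblasts in colour, other cells in grey and the 0.5% threshold as a dashed line. In the Pdgfra-GFP library the osteoblasts pile up above 10%, with a median of 10.6%, while those of the metaphyseal libraries spread from 0.5% to under 20%.

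By copy, *Bglap* reached 37153, 32652 and 99950 CPM (a gene's UMIs divided by all UMIs of the summed cells and scaled to 1e6, a level that does not depend on gene length in this 3′ method). *Bglap2* reached 17521, 14949 and 43931 CPM. The ratio of *Bglap* to *Bglap2* was 2.12, 2.18 and 2.28, close in all 3 libraries. *Bglap3* stood at 498, 347 and 3481 CPM, which is 0.902%, 0.724% and 2.36% of the UMIs of the 3 copies. It was thus the least abundant copy everywhere, with its largest share in the Pdgfra-GFP library.

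The label was checked against *Col1a1*, which is tested further on, and the other marker genes, *Col11a1*, *Col22a1* and *Car3*. The rule did not use these markers, but they helped to name the cells, so the markers carry no test. *Col1a1*, the main chain of type I collagen, reached 132655, 135296 and 96490 CPM in osteoblasts. It stood at 1024, 1876 and 677 CPM in the endothelial cells of the same libraries. *Col11a1*, a chain of the fibril-nucleating collagen XI, was at 3658, 3876 and 2713 CPM against 29.9, 77.0 and 124 CPM in endothelial cells. *Col22a1*, a fibril-associated collagen, was at 356, 331 and 247 CPM, and *Car3*, a carbonic anhydrase of muscle and fat cells as well, at 2809, 2495 and 2239 CPM. *Col22a1* was seen with at least 1 UMI in 45, 55 and 1039 osteoblasts and *Car3* in 45, 56 and 1221. In endothelial cells *Col22a1* was at 2.84, 5.91 and 4.26 CPM and *Car3* at 20.6, 38.8 and 17.0 CPM, and in the free RNA they were at 64.7, 82.7 and 65.8 CPM and at 312, 428 and 938 CPM. Both were thus higher in the osteoblasts than in either background in every library. Neither marks osteoblasts alone, with *Car3* at 356, 749 and 321 CPM in the Postn/Mmp13 cells described further on.

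For comparison, 3 other populations were gated in the same libraries. All met the same limits on genes, cycle, endothelial and haematopoietic UMIs. Dmp1/Mepe cells met the same osteocalcin threshold but held at least 5 UMIs of *Dmp1* and *Mepe* (14, 15 and 144 cells). Postn/Mmp13 cells, a stromal population of the metaphysis with under 0.5% osteocalcin, held at least 0.3% *Postn* and *Mmp13*, a UMI of *Pdgfra* or *Pdgfrb*, less than 0.5% *Cxcl12* and little *Mmp9* or *Acan* (19, 16 and 211 cells). Lepr/Cxcl12 cells, the marrow stroma, held at least 0.5% *Cxcl12* and a UMI of *Lepr* or *Adipoq* (737, 689 and 4504 cells). *Sp7*, which encodes the factor osterix that commits cells to the osteoblast lineage, was at 209, 214 and 178 CPM in osteoblasts. It was at 111, 155 and 143 CPM in Postn/Mmp13 cells, lower in each library, and at 40.7, 41.2 and 41.9 CPM in Lepr/Cxcl12 cells. *Runx2*, the earlier factor of the lineage, was at 140, 118 and 70.4 CPM in osteoblasts and 312, 266 and 120 CPM in Postn/Mmp13 cells, a difference in plain CPM that did not pass the test on scaled counts given further on. *H2B_GFP*, the reporter transcript, was at 51.3 CPM in osteoblasts of the Pdgfra-GFP library, 189 CPM in Postn/Mmp13 cells, 125 CPM in Lepr/Cxcl12 cells and 65.5 CPM in the free RNA, and at 0 in both metaphyseal libraries. The reporter transcript was thus lower in osteoblasts than in the free RNA, although the sort selected for its protein.

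**Figure D2:**
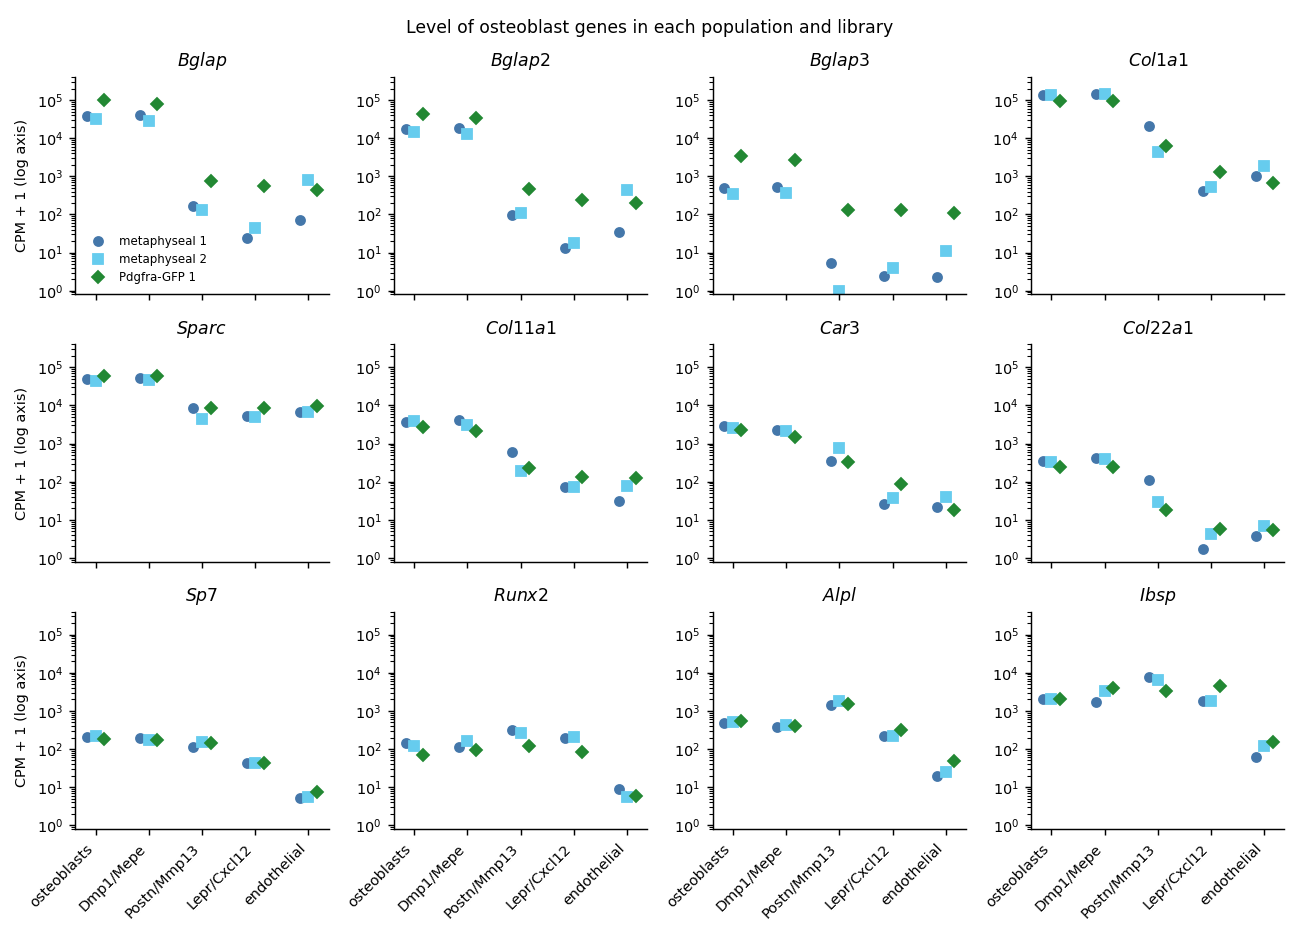
Level of 12 genes (y axis, CPM + 1, log scale) in 5 populations (x axis), with 1 point per library. Osteocalcin, Col1a1, Sparc, Col11a1, Car3 and Col22a1 are highest in osteoblasts and Dmp1/Mepe cells, while Alpl is highest in Postn/Mmp13 cells at 1426, 1843 and 1555 CPM.

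Markers of other cell types were low in osteoblasts. The 7 endothelial markers summed to 7.69, 17.7 and 5.77 CPM, led by *Egfl7*, *Kdr* and *Egfl7*, and the 7 skeletal muscle markers to 2.20, 2.66 and 3.36 CPM, led by *Mylpf*, with *Acta1*, *Ckm*, *Myh4* and *Myh7* at 0 throughout. The 6 B cell markers summed to 0, 1.77 and 10.9 CPM and the 9 myeloid markers to 35.2, 60.2 and 112 CPM, led by *S100a9* and *S100a8*. The 7 erythroid markers summed to 54.9, 69.1 and 560 CPM, with *Hbb-bs* the most abundant, against 15728, 14543 and 16930 CPM in the free RNA. The 8 osteoclast markers summed to 241, 228 and 275 CPM, of which *Ctsk* alone gave 214, 201 and 226 CPM, and the defining genes *Calcr*, *Atp6v0d2*, *Ocstamp* and *Dcstamp* were all at 0 in both metaphyseal libraries. The 6 septoclast markers summed to 53.8, 64.6 and 78.9 CPM, led by *Fabp5*.

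Cartilage genes stood apart in the Pdgfra-GFP library. The 8 chondrocyte markers summed to 308 and 244 CPM in metaphyseal osteoblasts and to 2063 CPM in those of the Pdgfra-GFP library, of which *Col2a1*, the collagen of cartilage, gave 285, 215 and 1641 CPM. *Comp* and *Matn1* were at 0 in both metaphyseal libraries, and the free RNA held 2398, 3019 and 9966 CPM of the same list. In that library 89 of 1313 osteoblasts (6.78%) had less than 0.5% *Col1a1*, a level that no metaphyseal osteoblast fell to. Of these 89 cells, 70 lay between 0.5% and 1% osteocalcin, none was called a doublet, and the median was 5779 UMIs. Summed, they held 13680 CPM of *Col2a1*, 3207 CPM of *Snorc*, 2308 CPM of *Chad* and 1361 CPM of *Comp*, all genes of cartilage matrix, with 2251 CPM of *Col1a1* and 16.6 CPM of *Col22a1*. They also held 7129 CPM of *Ibsp*, 21670 CPM of *Spp1*, 3438 CPM of *Wif1* and 1209 CPM of *Limch1*, against 2059, 6414, 271 and 76.3 CPM over all osteoblasts of the library. So for these cells, which met the rule near its threshold, the label osteoblast goes against the collagen genes. Each comparison was repeated without them, a setting added once the data had been seen.

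The first comparison asked how osteoblasts differ from the Postn/Mmp13 cells of the same suspensions. Summed UMIs of each population and library were compared with edgeR's quasi-likelihood test with the library as a block and Benjamini-Hochberg adjustment (threshold 0.05), leaving out every gene that gated either population. Of 7372 genes tested, 1263 were higher in osteoblasts (17.1%) and 1095 lower (14.9%). The scaling matters here. The TMM factors raised the log2 ratios by 0.60, 0.61 and 0.65, and with the gate genes and osteocalcin left out of the totals of the test the shift over the CPM printed here, which use all UMIs, was 0.67, 0.67 and 0.87, so a log2 fold change is relative to the typical gene, whose median was -0.01. With library totals alone the median was -0.65, and 549 of the 7372 genes were higher and 3674 lower. These values are the background for every list count given below for this comparison with library totals alone.

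The genes with the largest rise in osteoblasts were taken first. *Gal*, which encodes the neuropeptide galanin, was at 129, 98.3 and 121 CPM in osteoblasts and at 0, 0 and 2.83 CPM in Postn/Mmp13 cells. Its log2 fold change was 6.58 ± 0.38 (edgeR, adjusted p = 3.53e-08). Here and below ± gives a standard error derived from edgeR's fold change and test statistic. The value for *Gal* rested on 4 UMIs in the Postn/Mmp13 cells, and the ratio within the Pdgfra-GFP library was 42.8 (95% counting interval 16.7–157). *Sema3d*, a secreted guidance factor, was at 114, 128 and 81.4 CPM against 0, 0 and 2.12 CPM, a ratio of 38.4 (13.1–186) from 3 UMIs. *Cpz*, a carboxypeptidase with a Wnt-binding domain, was at 645, 562 and 680 CPM against 17.8, 0 and 17.7 CPM (log2 fold change 6.26 ± 0.28, adjusted p = 7.04e-09). *Prss35*, a protease homologue, was at 123, 101 and 112 CPM against 17.8, 0 and 1.41 CPM, with a ratio of 79.3 (21.9–656) from 2 UMIs in the Pdgfra-GFP library. In all 4 genes the libraries of the populations did not overlap.

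*Ifitm5*, a membrane protein of bone-forming cells mutated in a form of brittle bone disease, was at 959, 840 and 1204 CPM in osteoblasts against 57.9, 178 and 31.8 CPM, a log2 fold change of 4.76 ± 0.42. *Smpd3*, a sphingomyelinase whose loss leaves mouse bone undermineralized, was at 644, 717 and 430 CPM against 53.5, 66.6 and 14.8 CPM (4.89 ± 0.27). *Slc13a5*, the citrate transporter of the cell membrane, was at 174, 159 and 88.8 CPM against 13.4, 0 and 4.24 CPM (5.21 ± 0.33), and *Entpd3*, an ectonucleotidase, rose by 5.40 ± 0.33, both on fewer than 10 UMIs in each library of the Postn/Mmp13 cells. *Lipc*, a secreted lipase, rose by 4.86 ± 0.35, on 0, 0 and 15 UMIs in the Postn/Mmp13 cells, and *Cgref1* by 4.56 ± 0.30. No library of osteoblasts fell within the range of the Postn/Mmp13 cells for any of them.

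The genes with the largest fall followed. *Tnc*, the matrix glycoprotein tenascin C, was at 58.2, 145 and 167 CPM in osteoblasts and 3128, 4457 and 2444 CPM in Postn/Mmp13 cells (log2 fold change -4.01 ± 0.29). *Angpt4*, an angiopoietin, was at 0, 3.54 and 5.98 CPM against 120, 183 and 164 CPM (-4.24 ± 0.31). *Myl9* and *Acta2*, a light chain of myosin and an actin of contractile cells, had log2 fold changes of -4.21 ± 0.30 and -3.99 ± 0.36. *Serpine2*, a secreted protease inhibitor, was at 198, 324 and 384 CPM against 4696, 4668 and 6578 CPM (-3.42 ± 0.16). *Olfml2b*, *Podnl1*, *Tmem86a*, *Col8a1*, *Fhl2*, *Plac8* and *Limch1* completed the 12 genes named by size, with log2 fold changes from -4.07 to -3.45. With the Pdgfra-GFP library left out, all 24 genes named by size kept their calls. Of the 199 called genes that the lists and the size rule name, 142 then kept theirs, 41 lost them and 16 were not tested. DESeq2's Wald test ended 36 of the 199 calls, and an osteocalcin threshold of 0.25% ended 22.

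Collagen chains moved in both directions. Of 16 chains tested besides the marker genes, 7 were higher, 7 lower and 2 not called, with a median log2 fold change of -0.86, and with library totals alone 7 were higher and 9 lower. *Col1a1* was at 21210, 4474 and 6281 CPM in Postn/Mmp13 cells and rose by 4.58 ± 0.32, and *Col1a2*, its partner chain, rose by 4.31 ± 0.26. *Col11a2* rose by 5.90 ± 0.29, from 107, 11.1 and 50.1 CPM to 2147, 2212 and 1699 CPM, and *Col24a1* (on 1, 0 and 3 UMIs in the Postn/Mmp13 cells), *Col5a2*, *Col5a1* and *Col13a1* also rose. The chains of collagen VI, a microfibril collagen around cells, were lower: *Col6a1* at -1.87 ± 0.28, *Col6a2* at -1.92 ± 0.30 and *Col6a3* at -3.05 ± 0.33. *Col12a1*, *Col8a1*, *Col5a3* and *Col3a1* were lower too, although *Col3a1* (adjusted p = 0.0334) was higher in the osteoblasts of metaphyseal library 2, at 242 against 194 CPM.

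The enzymes that fold and cross-link collagen were mostly higher. Of 26 tested, 21 rose, 1 fell and 4 were not called, with a median log2 fold change of 1.43, and with library totals alone 17 rose and 3 fell. *Lox*, which cross-links collagen by oxidizing its lysines, was at 778, 816 and 594 CPM against 325, 94.4 and 67.8 CPM (3.20 ± 0.31). *P4ha1*, a prolyl hydroxylase subunit, rose from 84.7, 38.9 and 55.8 CPM to 265, 267 and 193 CPM, *Plod2*, a lysyl hydroxylase of collagen ends, by 2.02 ± 0.17, and *Serpinh1*, the collagen chaperone, by 1.49 ± 0.13 from 2976, 2192 and 2798 CPM to 4598, 4625 and 4154 CPM. *Fkbp11* rose by 2.64 ± 0.23 and *P3h1* and *Crtap*, partners in a complex that modifies collagen prolines, by 1.93 ± 0.19 and 1.52 ± 0.17. *Loxl1*, a cross-linker of elastic fibres, was the gene that fell, at 5.49, 11.5 and 29.6 CPM against 187, 194 and 263 CPM (-2.80 ± 0.28).

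Secretory pathway genes moved in both directions. Of 28 genes 16 rose, 7 fell and 5 were not called (median 0.77), while with library totals alone 10 rose and 10 fell. Genes of the translocon and its associated complex rose, such as *Ssr4* (1.94 ± 0.15, from 708, 611 and 557 CPM to 1504, 1351 and 1403 CPM) and *Sec61b* (1.66 ± 0.14), as did *Sec23a* (1.61 ± 0.20) of the vesicle coat that carries procollagen and *Kdelr2* and *Kdelr3*, receptors that retrieve resident proteins. The 7 that fell were chaperones and disulphide isomerases: *Hspa5*, *Hsp90b1*, *Calr*, *Pdia3*, *Pdia4*, *Pdia6* and *Sdf2l1*, with log2 fold changes from -0.99 to -0.41. *Hspa5*, the BiP chaperone, was at 360, 385 and 277 CPM against 615, 910 and 732 CPM, lower in every library. Without metaphyseal library 1 the count that fell was 4, without metaphyseal library 2 it was 2 and without the Pdgfra-GFP library 1.

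In the amino acid supply list 8 of 18 rose and 1 fell (median 0.57), and with library totals alone 5 rose and 4 fell. *Pycr1*, the last step of proline synthesis, was at 84.6, 107 and 107 CPM against 13.4, 0 and 21.2 CPM (3.43 ± 0.31). *Psat1*, of serine synthesis, rose by 2.50 ± 0.29, *Gars*, which charges the transfer RNA of glycine, by 1.67 ± 0.19 and *Aldh18a1*, the entry to proline synthesis, by 1.55 ± 0.28. The Postn/Mmp13 cells held few UMIs of *Pycr1* (3, 0 and 30), *Psat1* (2, 2 and 18) and *Aldh18a1* (7, 8 and 21). Glycine and proline are the commonest residues of collagen. *Glul*, glutamine synthetase, fell by 1.31 on the log2 scale. Without the Pdgfra-GFP library 3 of 16 rose and none fell.

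Mineralization genes were split too, with 5 of 13 higher, 7 lower and a median of -0.72 (5 and 8 with library totals alone). *Sparc*, a collagen- and mineral-binding protein, was at 50811, 45138 and 58633 CPM against 8751, 4418 and 8725 CPM (3.61 ± 0.16), and *Phex*, the endopeptidase lost in X-linked low blood phosphate, was at 80.2, 77.9 and 47.9 CPM against 17.8, 5.55 and 20.5 CPM (2.46 ± 0.29). *Alpl*, the phosphatase that frees phosphate for mineral, was lower, at 490, 514 and 553 CPM against 1426, 1843 and 1555 CPM (-0.88 ± 0.14). *Spp1*, osteopontin, was lower at 6078, 5219 and 6414 CPM against 39278, 20814 and 36791 CPM (-1.67 ± 0.14). *Enpp1* and *Ank*, which supply the mineralization inhibitor pyrophosphate, had log2 fold changes of -2.52 ± 0.33 and -0.89 ± 0.30, although *Ank* was not lower on the scaled ratio in metaphyseal library 2. Of the vitamin K genes, *Ggcx*, the carboxylase of osteocalcin, rose by 1.63 ± 0.33 and *Vkorc1*, which regenerates its vitamin, by 2.21 ± 0.19, from 227, 133 and 277 CPM to 452, 440 and 846 CPM. The Gla proteins *Mgp*, *Gas6* and *Pros1* were lower.

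Among 15 transcription factors 8 rose, 3 fell and 4 were not called (median 1.18), and with library totals alone 7 rose and 6 fell. *Creb3l1*, which drives secretory genes in osteoblasts, was at 383, 453 and 353 CPM against 201, 183 and 104 CPM (2.14 ± 0.20). *Dlx3*, *Twist1*, *Mef2c*, *Atf4*, *Sp7* and *Fosl2* were also among those that rose, by 2.30, 1.89, 1.75, 1.40, 1.27 and 1.18. *Dlx3* rested on 7, 0 and 15 UMIs in the Postn/Mmp13 cells. *Runx2* (-0.25 ± 0.18, adjusted p = 0.318) and *Dlx5* (-0.21 ± 0.18, adjusted p = 0.407) did not pass the test. *Hey1*, *Cebpb* and *Zfp467* fell by 2.34, 1.24 and 0.91.

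Of 25 signals tested 7 rose and 11 fell (median -0.42), and of 21 receptors 6 rose and 8 fell (median 0.13). With library totals alone 7 signals rose and 14 fell (median -1.07), and 3 receptors rose and 10 fell, with a median of the other sign (-0.51). Over all 7372 genes 549 were then higher and 3674 lower, with a median of -0.65. *Cthrc1*, a secreted protein of matrix-forming cells, was at 1571, 1514 and 1502 CPM against 303, 16.7 and 190 CPM (3.98 ± 0.35). *Bmp7*, *Bmp2*, *Bmp3* and *Notum*, a Wnt-inactivating enzyme, rose by 3.42, 2.47, 2.37 and 2.28. These rises rest on few UMIs in the Postn/Mmp13 cells, which held 1, 0 and 6 of *Bmp7* and 0, 0 and 7 of *Bmp2*. The same cells held 3, 7 and 38 of *Bmp3* and 6, 0 and 13 of *Notum*. Osteoclast factors were among those that fell: *Tnfsf11*, or RANKL, was at 3.30, 6.20 and 7.86 CPM against 84.7, 72.2 and 109 CPM (-3.02 ± 0.25) and *Csf1* at 9.89, 19.5 and 19.7 CPM against 160, 239 and 191 CPM (-2.68 ± 0.21). *Ramp1*, part of the receptor of the neuropeptide CGRP, rose by 2.33 ± 0.19, and *Lrp5*, a Wnt co-receptor, by 1.98 ± 0.28. *Esr1*, *Egfr* and *Vdr* fell by 2.73, 2.66 and 1.06. Of 12 stromal progenitor genes 8 fell and 1 rose (median -1.51). The gene that rose was *Adipoq* (1.83 ± 0.31), at 9.89, 53.1 and 105 CPM against 17.8, 5.55 and 54.4 CPM, so it was lower in the osteoblasts of metaphyseal library 1. All of these levels were below its free RNA level of 670, 674 and 1239 CPM. With library totals alone 1 progenitor gene rose and 10 fell.

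Of 12 immediate early and heat shock genes 10 rose and none fell (median 1.29), with sums of 5791, 5814 and 1459 CPM in osteoblasts and 3525, 2853 and 1468 CPM in Postn/Mmp13 cells. Their part in the result was not tested. All 4 erythroid markers, both chondrocyte markers and both osteoclast markers that were tested also passed, of 7, 8 and 8 listed. With library totals alone none of the erythroid or osteoclast markers and 1 of the chondrocyte markers passed. The chondrocyte list summed to 98.0, 27.8 and 581 CPM in Postn/Mmp13 cells. Osteoblasts were also deeper, with medians of 20882, 21840 and 10930 UMIs against 11596, 12192 and 6804. With each cell thinned to 3000 UMIs, 349 of 1945 genes were higher and 309 lower. Without the Pdgfra-GFP library, which held most cells, 553 of 5605 genes were higher and 465 lower.

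**Figure D3:**
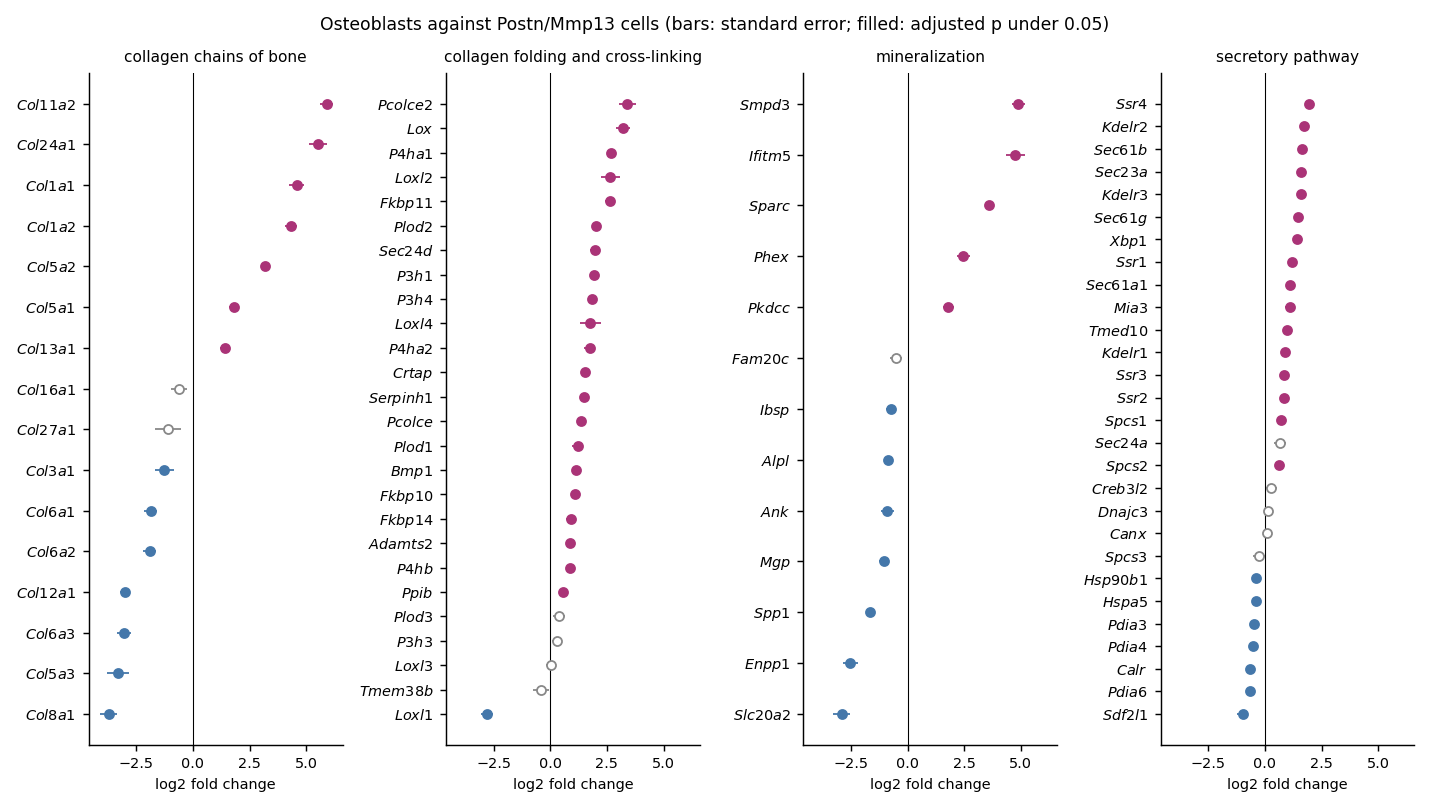
Log2 fold change of osteoblasts over Postn/Mmp13 cells (x axis, relative to the typical gene, bars for the standard error derived from edgeR's test) for genes of 4 lists, filled where edgeR's adjusted p is under 0.05. Of the enzymes that fold and cross-link collagen 21 of 26 lie to the right of 0 and pass, while the collagen chains split into 7 higher and 7 lower and the secretory pathway into 16 and 7.

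The next comparison asked how osteoblasts differ from the Dmp1/Mepe cells, which also hold at least 0.5% osteocalcin. It shares the osteoblast sums with the first, so the comparisons are not independent. Of 6315 genes tested 15 were higher in osteoblasts (0.238%) and 56 lower (0.887%), with a median log2 fold change of 0.01. This split depends on the osteocalcin threshold, with 63 higher and 68 lower at 0.25%, and 2 and 22 at 1%, where 18 of 34 named calls were lost and 3 not tested. Of 15 collagen chains 2 were called higher, *Col3a1* and *Col8a1*, and none lower (median 0.13). *Col8a1* (1.84 ± 0.42) was not higher in every library. *Col1a1* was at 132655, 135296 and 96490 CPM in osteoblasts and at 145864, 141668 and 92742 CPM in Dmp1/Mepe cells, a log2 fold change of -0.08 ± 0.10 that did not pass (adjusted p = 0.952). None of 25 collagen folding enzymes, 28 secretory genes, 17 amino acid supply genes or 6 vitamin K genes was called in either direction, with medians of 0.07, 0.10, 0.02 and 0.12.

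Osteocyte genes were mostly lower in osteoblasts, beyond the *Dmp1* and *Mepe* that set the groups. *Dkk1*, a secreted Wnt antagonist made by osteocytes, was at 16.5, 7.97 and 17.3 CPM in osteoblasts and 48.5, 79.1 and 243 CPM in Dmp1/Mepe cells, a log2 fold change of -3.44 ± 0.26 (adjusted p = 1.03e-08). *Phex* was at 80.2, 77.9 and 47.9 CPM against 84.8, 168 and 287 CPM (-1.65 ± 0.27), a gap that was wide in the Pdgfra-GFP library and small in metaphyseal library 1. *Spp1* was at 6078, 5219 and 6414 CPM against 12175, 7898 and 16857 CPM (-1.03 ± 0.12, adjusted p = 7.2e-06), lower in every library. Of 11 osteocyte genes tested 6 were lower and 1 higher (median -1.30): besides *Dkk1* and *Phex*, *Ptprz1* (-3.40 ± 0.38), *Pdpn*, the podoplanin of early osteocytes (-2.30 ± 0.26), *Cd44* (-1.91 ± 0.29) and *Irx5* (-1.30 ± 0.31) were lower. The gap was widest in the Pdgfra-GFP library, where *Pdpn* was at 21.7 against 138 CPM. *Pdpn* was at 8.79 against 9.09 CPM in metaphyseal library 1 and 13.3 against 31.6 CPM in metaphyseal library 2. The limit on *Dmp1* and *Mepe* that split the groups was a fixed number of UMIs per cell, whatever the depth of the cell. Dmp1/Mepe cells held a median of 24682.5, 21771 and 12935 UMIs, with *Dmp1* at 482, 1152 and 1695 CPM. The part of depth and of this limit in the library difference was not tested. *Ptprz1*, *Cd44* and *Irx5* were higher in the osteoblasts of metaphyseal library 1, and 9, 4 and 1 osteocyte genes were lower without metaphyseal library 1, without metaphyseal library 2 and without the Pdgfra-GFP library.

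*Plpp1*, a phosphatase of lipid signals at the cell surface, had the largest change of the genes named by size, at 5.49, 6.20 and 15.4 CPM against 9.09, 38.0 and 412 CPM (-4.36 ± 0.32). *Ank* was at 17.6, 20.4 and 19.3 CPM against 42.4, 50.6 and 49.2 CPM (-1.33 ± 0.21), a difference of like size in all 3 libraries. *Fam20c*, the kinase that phosphorylates secreted bone proteins, was lower by a log2 fold change of -1.39 ± 0.21, which with *Spp1*, *Phex* and *Ank* made 4 of 11 mineralization genes lower and none higher. *Car12*, a carbonic anhydrase, was at 4.39, 14.2 and 10.6 CPM against 54.5, 22.2 and 89.5 CPM (-2.81 ± 0.28). Among the signals, *Bmp4* (-2.31 ± 0.25), *Bmp8a* (-2.32 ± 0.28) and *Bmp2* (-2.30 ± 0.35) were lower, although *Bmp8a* was level in metaphyseal library 1 (12.1 CPM in both) and *Bmp2* was higher in the osteoblasts of metaphyseal library 2. *Resf1*, *Ugdh*, *Nnmt*, *Bhlhe40*, *Cldnd1*, *Phlda1*, *Enpp6* and *Zfas1*, the other genes named by size, were lower by log2 fold changes from -1.06 to -0.82.

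Among the genes higher in osteoblasts, *Dlx5*, a homeobox factor of early osteoblasts, was at 89.0, 78.8 and 100 CPM against 36.4, 57.0 and 61.9 CPM (0.74 ± 0.18, adjusted p = 0.0488), the single member called of 13 transcription factors. *Tmem119*, a membrane protein that promotes osteoblast differentiation, was at 333, 394 and 395 CPM against 261, 266 and 218 CPM (0.60 ± 0.14). *Wnt4* was at 118, 111 and 49.1 CPM against 72.7, 41.1 and 29.8 CPM (0.85 ± 0.19) and *Ptn*, pleiotrophin, rose by 1.34 ± 0.25. *Crip1* rose by 0.71 ± 0.16, and *Col3a1*, *Col2a1* and *Ecrg4* by 1.40 ± 0.32, 1.22 ± 0.28 and 0.91 ± 0.21. *Dlx5*, *Tmem119* and *Wnt4* were higher in each library.

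These calls rested on few cells. DESeq2's Wald test called 4 genes in place of 71, *Dkk1*, *Spp1*, *Bmp4* and *Car12*, so the calls of the other genes named in this comparison ended under it. Without the Pdgfra-GFP library 6 of 4937 genes were called and *Col2a1*, *Col3a1*, *Dkk1*, *Resf1* and *Spp1* remained of the genes named by size. Without metaphyseal library 2 it was 21 genes, with *Dkk1*, *Plpp1* and *Spp1* among those named by size. Without the 89 cells low in *Col1a1*, 7 genes were higher and 58 lower, and *Col2a1*, *Ecrg4*, *Dlx5*, *Col8a1* and *Limch1* lost their calls. The chondrocyte list summed to 308, 244 and 2063 CPM in osteoblasts and 27.3, 117 and 1368 CPM in Dmp1/Mepe cells, led by *Col2a1*, and its part in the result was not tested.

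**Figure D4:**
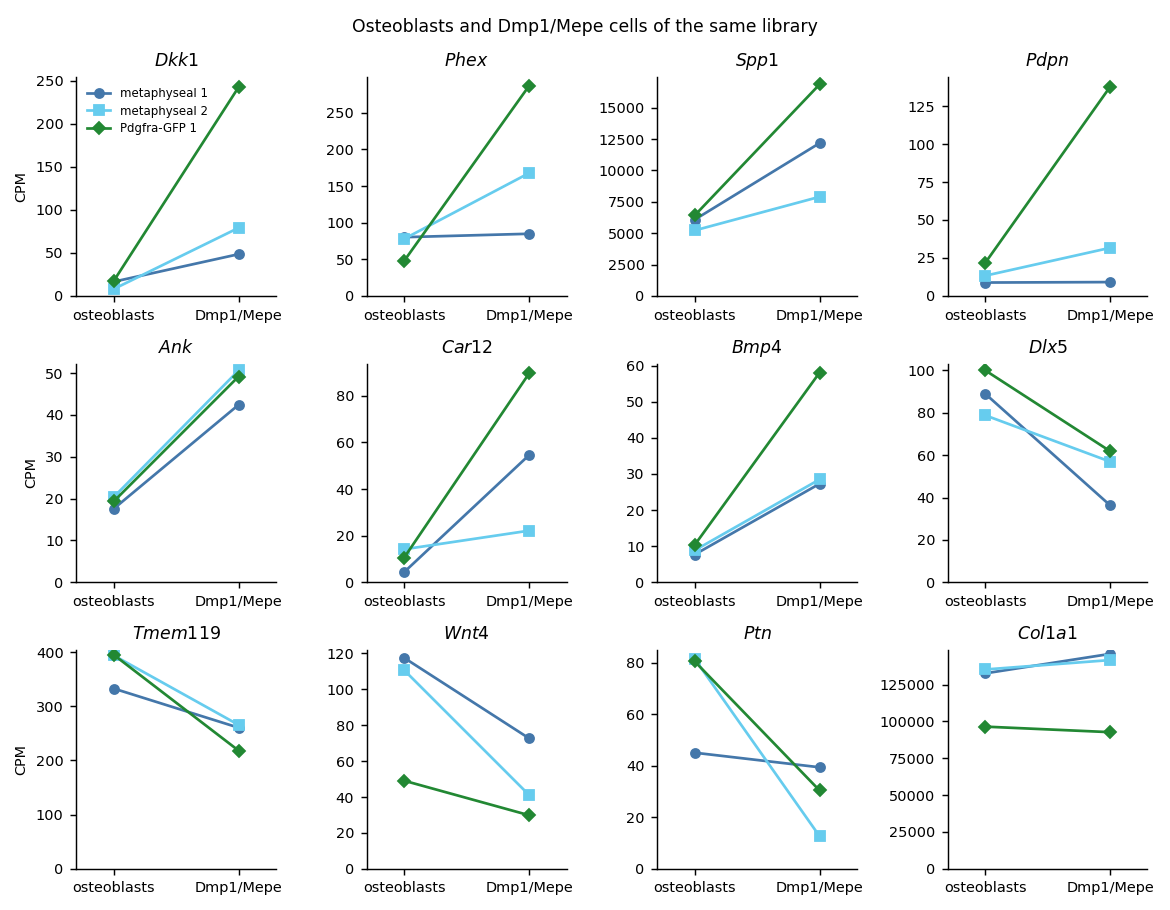
Level (y axis, CPM) of 12 genes in osteoblasts and Dmp1/Mepe cells (x axis), with a line for each library. Dkk1, Spp1, Ank, Car12 and Bmp4 are lower in the osteoblasts of all 3 libraries, while Dlx5, Tmem119 and Wnt4 are higher in all 3.

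Osteoblasts also varied among themselves. In each library they were cut at the median osteocalcin share into an upper and a lower group, which is a cut through a range and not a pair of cell types. Of 1414 cells, 2, 0 and 63 lay within 10% of the cut. With the osteocalcin copies and gate genes left out of the test and its totals, 42 of 4577 genes were higher in the upper group (0.918%) and 64 lower (1.4%), with a median log2 fold change of 0.00. The TMM factors raised the log2 ratios by 0.12, 0.11 and 0.25 (0.24, 0.21 and 0.54 over printed CPM with the genes left out), and with library totals alone 24 genes were higher and 98 lower.

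*Loxl2*, a lysyl oxidase of collagen cross-links, was at 120, 133 and 320 CPM in the upper group and 13.5, 84.1 and 94.3 CPM in the lower (log2 fold change 2.03 ± 0.24, adjusted p = 2.77e-05). *Fxyd6*, a regulator of the sodium pump, was at 101, 57.9 and 218 CPM against 27.1, 41.1 and 94.0 CPM (1.63 ± 0.19), and along the osteocalcin range of the Pdgfra-GFP library it stood at 45.9, 61.7, 93.9, 138 and 218 CPM. *Prss35*, *Lipc* and *Sema3d* rose by 1.54 ± 0.20, 1.27 ± 0.15 and 1.13 ± 0.16. *Thbs1*, the matricellular protein thrombospondin, was at 274, 244 and 205 CPM against 156, 134 and 137 CPM (1.09 ± 0.14). *Dtna*, *Tsc22d1*, *Nnmt*, *Cryab*, *Jam2* and *Galnt1* rose by 1.29 to 0.85. *Nnmt* was not higher in metaphyseal library 1 on plain CPM, at 53.6 against 54.1 CPM.

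Other genes were higher in the lower group. *Postn*, periostin, was at 4.29, 17.5 and 10.1 CPM in the upper group and 47.3, 50.1 and 173 CPM in the lower (-3.20 ± 0.29, adjusted p = 1.76e-06). *Tnc* was at 21.4, 29.8 and 37.0 CPM against 97.0, 263 and 375 CPM (-2.73 ± 0.18), and from the lowest to the highest osteocalcin bin of the Pdgfra-GFP library it fell through 810, 549, 178, 111 and 38.4 CPM. *Col12a1*, *Col6a2*, *Col6a3*, *Col6a1* and *Col3a1* were lower by log2 fold changes of -2.07, -1.97, -2.29, -1.72 and -1.22, while *Col5a2* and *Col11a2* were higher by 0.52 and 0.51, so 2 of 13 collagen chains rose and 5 fell. *Col6a3* was not lower on the scaled ratio in metaphyseal library 2. *Fmod*, a collagen-binding proteoglycan, was at 27.9, 38.6 and 42.1 CPM against 101, 87.6 and 259 CPM (-1.81 ± 0.19). *S100a6*, *Cp*, *Ecrg4*, *Islr*, *Ptn* and *H2-Q7* were lower by -2.11 to -1.31. Of 13 stromal progenitor genes 6 were lower and none higher (median -0.59), among them *Limch1* (-2.75 ± 0.38), *Wif1* (-2.02 ± 0.37, with no fall in metaphyseal library 2) and *Pdgfrb* (-1.55 ± 0.26).

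None of 13 transcription factors, 27 secretory genes or 16 amino acid supply genes was called, with medians of 0.13, 0.01 and -0.08. Of 16 signals 5 were lower and none higher (median -0.17), against 1.4% of all genes tested that were lower. Of 24 collagen folding enzymes *Loxl2* was higher, *Pcolce2* lower (-1.29 ± 0.26) and 22 not called. Of 11 mineralization genes *Phex* was higher (0.79 ± 0.17), at 92.1, 96.5 and 50.9 CPM against 67.6, 59.0 and 43.0 CPM, and *Ibsp*, bone sialoprotein, lower (-0.68 ± 0.16), at 1528, 1716 and 1065 CPM against 2537, 2383 and 3654 CPM. Both moved the same way in all 3 libraries.

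Without the Pdgfra-GFP library 66 genes were called in place of 106. Of the 66, 38 were among the 106, and 2 of the 66 had the opposite sign in the main fit. Among the 24 genes named by size 19 kept their calls, the exceptions being *Cp*, *Ecrg4*, *Islr*, *Jam2* and *Nnmt*. *Limch1*, *Wif1*, *Pdgfrb*, *Phex*, *Col3a1* and *Col6a3* also lost theirs, and the stromal progenitor genes called fell to 1. Without metaphyseal library 1, 440 of 9919 genes tested were called, and without metaphyseal library 2, 267 of 9620, against 4577 tested with all libraries, while *Ibsp*, *Col5a2* and *Col11a2* lost their calls in either case. Without the cells low in *Col1a1*, 48 genes were higher and 55 lower and all 24 kept their calls, so the lower group differed in these genes without them. Other settings ended more calls. Of the 43 called genes that the lists and the size rule name, 20 lost theirs at an osteocalcin threshold of 1% and 2 more were not tested, 19 lost theirs under DESeq2's Wald test, and 30 were not tested once each cell was thinned to 3000 UMIs. *Col2a1* was at 454, 302 and 772 CPM in the upper group and 106, 127 and 3037 CPM in the lower, higher in the lower group in the Pdgfra-GFP library and lower in the others, and its part in the result was not tested.

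**Figure D5:**
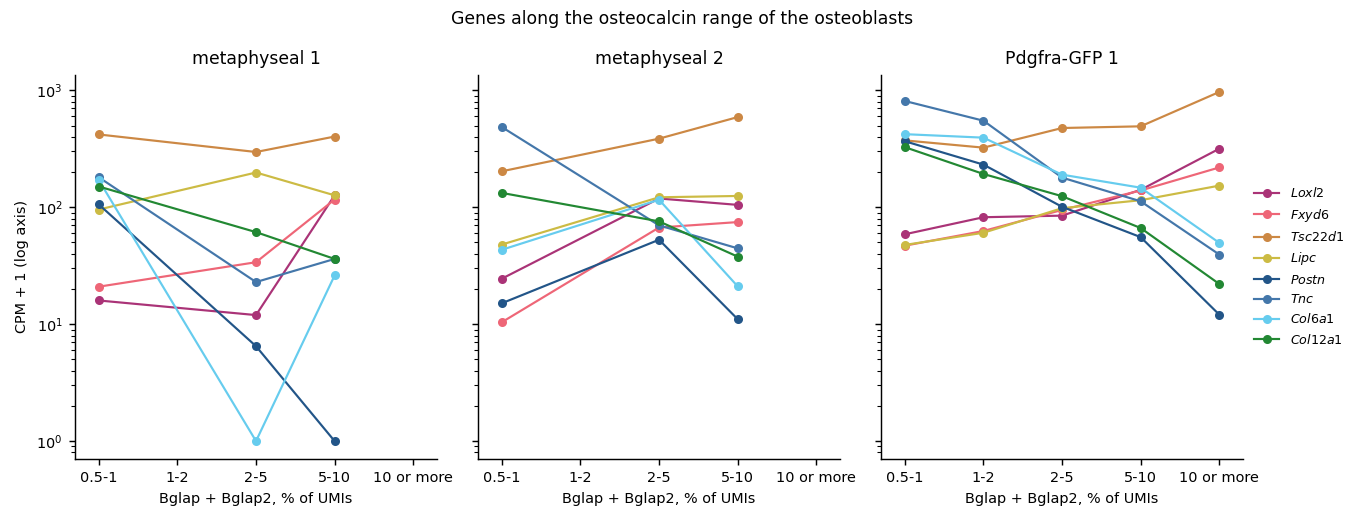
Level of 8 genes (y axis, CPM + 1, log scale) in osteoblasts binned by the share of Bglap and Bglap2 in their UMIs (x axis, percent), 1 panel per library, with bins of fewer than 10 cells not shown. In the Pdgfra-GFP library Loxl2 rises from 57.7 to 316 CPM and Tnc falls from 810 to 38.4 CPM between the end bins.

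Osteoblasts of the groups were also set side by side, with no test since there was a single Pdgfra-GFP library. Of the immediate early and heat shock genes, 10 of 11 with a mean of at least 50 CPM were at least 2 times lower in the Pdgfra-GFP library, against 4.24% of all 1840 genes at that level, and none was 2 times apart between the metaphyseal libraries. *Hspa1b*, a heat shock chaperone, was at 341, 395 and 9.33 CPM and *Fos*, a factor induced within minutes of a stimulus, at 1795, 1901 and 581 CPM. Mitochondrial UMIs were a median of 2.35%, 2.25% and 0.869%. Of 20 collagen folding enzymes and 24 secretory genes at that level, 1 each was at least 2 times higher in the Pdgfra-GFP library and none lower, with median ratios of 0.800 and 0.863. The median ratio was 0.219 for the 11 immediate early and heat shock genes. In the opposite direction, both chondrocyte markers at that level were at least 2 times higher in the Pdgfra-GFP library (median ratio 20.4), against 1.79% of all genes there, as were 4 of 7 stromal progenitor genes (median ratio 2.06), but 1 of those 2 markers and 3 of those 7 genes were also at least 2 times apart between the metaphyseal libraries. *Mgp*, an inhibitor of mineralization, was at 16.5, 21.3 and 350 CPM, and *Hbb-bs*, a haemoglobin chain of red cells, at 33.0, 40.7 and 305 CPM.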

How the data were processed

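The data are 3 single-cell libraries of mouse long bone in 2 groups taken from the sample titles. The deposited matrices hold UMI counts per gene and barcode for 55422 genes, unfiltered. Per the submitters' processing notes and the study's methods, the authors trimmed reads with fastp 0.20 and aligned them to mm10 with STAR 2.7.3a through STARsolo, with the H2B-GFP sequence added. The notes also name bcl2fastq and Cell Ranger. The chemistry is V3 of the Chromium 3′ kit in the study's methods and V2/V3 in the labels. Counts of free RNA are in the matrices and were not subtracted.

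Cells were gated as described, counts were summed per library and population, and sums of at least 10 cells were tested with edgeR 4.0.16 in R 4.3.3 (quasi-likelihood, TMM, library as block, filterByExpr, Benjamini-Hochberg over all genes tested). Gate genes and *Bglap3* stayed out of tests and totals, and the markers of the label were not tested. Levels in CPM use all UMIs. The scripts were tested on simulated data. DESeq2 1.42.0 was an alternative. Scrublet (scanpy 1.11.5) was run on every library to mark doublets, which were kept in the main result. Members and gene lists were chosen with earlier results of these data known. Named genes are those of the gene lists and, per comparison and direction, up to 12 called genes with the largest log2 fold change, the same direction in every library and a mean of at least 50 CPM. *Gm*, *Rik*, mitochondrial and ribosomal protein genes were not named. Promoters came from RefSeq (GRCm38.p6) and gene positions from the Gencode M21 annotation.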

Additional observations from a re-analysis of the deposited data

Results flagged for a closer look

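In the comparison of osteoblasts with Postn/Mmp13 cells, 2 genes moved one way in both metaphyseal libraries and the other way in the Pdgfra-GFP library, on log2 ratios scaled with the TMM factors. *Ibsp*, which encodes bone sialoprotein, had log2 ratios of -1.28 and -1.03 in the metaphyseal libraries and 0.14 in the Pdgfra-GFP library. On plain CPM it was lower in the osteoblasts of that library too, at 2059 against 3414 CPM, so its sign there depends on the scaling: the TMM factors raised the log2 ratios of that library by 0.65 and leaving the gate genes and osteocalcin out of the totals by another 0.22. *Col10a1*, a collagen of hypertrophic cartilage, had log2 ratios of -1.35 and -0.10 in the metaphyseal libraries and 1.96 in the Pdgfra-GFP library, at 5.49, 9.74 and 25.6 CPM in osteoblasts. The difference between the groups was not tested in either gene, since there was a single Pdgfra-GFP library. Without the cells low in *Col1a1* the fitted log2 fold change of *Col10a1* was 1.01 and no longer passed.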

How the results depend on the processing

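Leaving out 1 library at a time gave 1018 to 2434 called genes against Postn/Mmp13 cells (2358 with all), 6 to 97 against Dmp1/Mepe cells (71) and 66 to 440 between the osteocalcin groups (106), in that order below. DESeq2's Wald test called 1318, 4 and 38. Without the library as a block it was 1406, 0 and 0, with 145 and 159 genes at an unadjusted p under 0.05 in the comparisons with no call (edgeR). Thinning to 3000 UMIs gave 658, 9 and 28, a threshold of 0.25% osteocalcin 131 and 298 in the Dmp1/Mepe and osteocalcin group comparisons, and one of 1% 24 and 32. Without a filter on low counts 160 and 333 were called there. With library totals in place of TMM, chosen after the data were seen, 4223 genes were called against Postn/Mmp13 cells. Of these, 1646 were also called in the main test. Of the 4223, 342 had the opposite sign in the main fit, whether called there or not. Among named genes *Ctsk*, *Ppib*, *Pth1r* and *Slc38a2* turned to log2 fold changes of -0.00517, -0.0588, -0.0227 and -0.0732. The osteoblast share of the Pdgfra-GFP library was 15.5% at a threshold of 0.25%, 10.0% at 1%, 15.7% among cells with at least 2000 genes, 10.9% without cells low in *Col1a1* and 13.0% without the limit on *Dmp1* and *Mepe*. Gates of 0.6% *Postn* and *Mmp13* and of 0.1% *Dmp1* and *Mepe* could not be fitted, with fewer than 2 libraries holding 10 cells of both populations. The library was the block in each main test, which pairs the populations of a library. Few metaphyseal osteoblasts (45 and 56) limit what the metaphyseal libraries can show.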
